A study of Mus musculus with 12 samples.

Results

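The circadian clock genes described here were 10 members of the clock's transcriptional loop and its outputs, taken from the 17097 genes that the arrays measured with a probe set assigned to 1 gene. They were Arntl, Npas2, Per1, Per2, Per3, Ciart, Nr1d2, Dbp, Tef and Hlf, chosen by name with the differences between the surgery groups already known. Where a gene had several probe sets, the one with the highest mean signal was used. All 10 passed the filter on low signal, 8 of them on all 12 arrays, with Arntl under it on 1 array and Ciart on 3. Their levels by surgery group are therefore a description and carry no test, while the comparison of cell gates and the other clock genes were tested. Whether a surgery difference differs between the gates is built from the same levels, so for the 10 genes nothing is read from that test.

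The study sorted fibroblasts from mouse lung by the brightness of green fluorescent protein reporting Pdgfra (PDGFRa-GFP), giving a bright and a dim gate. Mice had a sham operation (SHAM), a partial pneumonectomy, which is the removal of part of the lung (PNX), or a pneumonectomy with expression of a dominant negative form of the receptor FGFR2 (PNX dnFGFR). Lungs were taken 5 days after surgery and digested with dispase. Each of the 6 groups had 2 Affymetrix arrays, labelled as biological replicates, made from 2000 sorted cells whose cDNA was amplified over 25 cycles. None of the SHAM groups used here carried dnFGFR, so an effect of the transgene without pneumonectomy cannot be told apart from its effect after it. The sources used here do not give the hour of harvest, age, strain, promoter driving dnFGFR or number of mice behind a sample. If a sample pooled mice or shared its mouse with another, the p-values below measure only the spread between these samples.

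Signals are log2 values, so a difference of 1 is a doubling. Array medians lay between 5.06 and 5.13, and the 2 arrays of a group correlated at 0.953 to 0.976 over the genes tested. Against the names of the gates, Pdgfra was lower on the arrays labelled bright (4.84 to 5.54) than on those labelled dim (6.66 to 7.13), and bright and dim are used below as the labels give them. Of the fibroblast markers, Col1a1 was high on every array (11.82 to 12.46), Dcn in bright cells (11.97 to 12.21) but not in dim (5.72 to 8.48), and Col1a2 lay at 5.74 to 7.80. Also high on every array were Sftpc (11.36 to 12.43), a marker of alveolar type II epithelium, and Lyz2 (9.77 to 11.31), found in macrophages and type II cells. None of the markers tested in 8 cell type lists passed limma's test between surgery groups as the mean over gates. Among all genes only 0.144% (PNX minus SHAM), 2% (PNX dnFGFR minus SHAM) and 0% (PNX dnFGFR minus PNX) did, so this does not show an unchanged mix of cells. Cdh1, Cldn5, Cd3e, Ms4a1 and Msln were not tested, and Sftpb and Lamp3 not measured. For PNX dnFGFR minus SHAM, the epithelial marker Sftpa1 differed by -1.03 and the mesothelial marker Wt1 by 1.09. The mean signal of the epithelial list spanned 7.27 to 8.35 (SHAM), 7.44 to 8.14 (PNX) and 7.28 to 7.58 (PNX dnFGFR). For the macrophage list these ranges were 6.34 to 7.73, 6.46 to 6.95 and 6.74 to 7.40. For the mesothelial list they were 3.36 to 5.07, 3.43 to 6.74 and 3.67 to 6.06, where Upk3b differed by 1.11 between PNX and SHAM as the mean over gates, and the contractile marker Acta2 differed by 0.95. The part of such marker shifts in the clock gene differences was not tested. In such bulk samples, fewer cells of a type and less RNA per cell cannot be told apart.

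In the mammalian clock, the activator BMAL1, encoded by Arntl, pairs with CLOCK or NPAS2 and switches on genes with E-box motifs, among them the Period and Cryptochrome genes, whose products then repress the activators. A second loop joins the REV-ERB repressors, one of which is NR1D2, with the ROR activators at ROR elements, including those of Arntl. DBP, TEF and HLF carry the rhythm onward through D-box motifs, and in lung the clock is known to run in epithelium, fibroblasts and immune cells.

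Promoter stretches are shown because they hold letters through which these loops are known to act. RefSeq windows of 300 bases (250 before and 50 after an annotated start, build GRCm38.p6) matched 9 of the 10 genes, and Per2 had none. Both strands were searched, and the capitals below mark the match. The E-box CACGTG was found in at least 1 window of 3 genes, Ciart, Per1 and Tef. Counted by window and not by gene, 7.15% of 32851 windows of all genes held it. Ciart held 3 copies, a number reached by 0.0883% of windows. Each line gives the 250 bases before a start, 5′ to 3′.
Ciart, chr3:95882229-95882478 (minus strand): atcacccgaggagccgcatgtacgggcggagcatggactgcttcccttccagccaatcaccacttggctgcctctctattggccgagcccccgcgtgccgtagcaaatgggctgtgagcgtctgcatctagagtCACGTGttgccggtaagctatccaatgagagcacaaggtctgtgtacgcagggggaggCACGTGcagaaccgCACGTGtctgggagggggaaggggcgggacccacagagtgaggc
Per1, chr11:69098699-69098948 (plus strand): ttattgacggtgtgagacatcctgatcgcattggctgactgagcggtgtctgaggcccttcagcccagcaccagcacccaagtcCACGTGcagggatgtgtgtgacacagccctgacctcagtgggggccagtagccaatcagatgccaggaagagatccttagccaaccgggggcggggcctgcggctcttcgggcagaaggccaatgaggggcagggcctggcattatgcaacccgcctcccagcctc
Tef, chr15:81802423-81802672 (plus strand): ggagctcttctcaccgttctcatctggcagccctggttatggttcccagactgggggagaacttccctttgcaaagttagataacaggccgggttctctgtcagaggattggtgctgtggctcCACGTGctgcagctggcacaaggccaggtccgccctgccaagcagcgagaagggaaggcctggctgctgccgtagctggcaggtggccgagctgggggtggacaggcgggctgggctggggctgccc
The D-box, searched as TTATGTAA or TTACGTAA, occurred in 1.06% of windows and among these genes only in that of Per3, which held 2 copies, a number reached by 0.0244% of windows.
Per3, chr4:151044666-151044915 (minus strand): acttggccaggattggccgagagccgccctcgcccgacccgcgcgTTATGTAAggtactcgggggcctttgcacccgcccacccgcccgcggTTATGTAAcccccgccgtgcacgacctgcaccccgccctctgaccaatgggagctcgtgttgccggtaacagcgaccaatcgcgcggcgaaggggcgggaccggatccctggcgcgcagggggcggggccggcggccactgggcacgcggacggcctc
A cAMP response element, TGACGTCA, lay directly before the start of Hlf and occurred in 1.79% of windows.
Hlf, chr11:90390918-90391167 (minus strand): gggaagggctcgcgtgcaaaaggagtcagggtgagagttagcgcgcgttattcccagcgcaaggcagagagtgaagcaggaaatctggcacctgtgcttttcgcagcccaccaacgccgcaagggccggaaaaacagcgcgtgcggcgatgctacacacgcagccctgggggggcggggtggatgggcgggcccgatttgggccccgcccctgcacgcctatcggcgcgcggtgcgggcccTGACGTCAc
A ROR element was matched in 1 of the windows of Arntl, just after the start, against 0.384% of all windows, and 30 bases around it are shown.
Arntl, chr7:113207528-113207557 (plus strand): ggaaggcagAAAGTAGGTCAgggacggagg
The windows of Npas2, Nr1d2 and Dbp held none of these letters, which says nothing of sites elsewhere. Per1, Tef and Arntl each had 2 annotated windows. The stretches of Per1 and Arntl are from the window with the match, while both Tef windows held 1 E-box and that of the first is shown.

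The activators were lower after PNX than after SHAM in both gates. Arntl, on chromosome 7 (113178471 to 113314126) and the indispensable partner of the activator pair, gave 6.30 and 7.27 on the bright SHAM arrays, 5.44 and 5.49 after PNX and 5.87 and 6.30 after PNX dnFGFR. Its dim arrays read 6.86 and 7.23 (SHAM), 4.86 and 5.21 (PNX), then 6.11 and 6.57 (PNX dnFGFR). The PNX arrays were the lowest in each gate, and those of PNX dnFGFR lay between PNX and SHAM, with one of them level with SHAM at 6.30 in bright cells to 2 decimals. The PNX minus SHAM difference was -1.32 ± 0.31 (SE, n = 2 arrays a group) in bright and -2.01 ± 0.31 in dim cells, a level 4.02 times lower in the dim gate. PNX dnFGFR minus PNX was 0.62 ± 0.31 and 1.30 ± 0.31. In bright cells the first difference shrank to -0.84 without SHAM replicate 2, and the second to 0.41 without PNX dnFGFR replicate 2.

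Npas2, the CLOCK paralogue that also pairs with BMAL1, lies on chromosome 1 (39193702 to 39363240). On the bright arrays it gave 8.21 and 8.73 (SHAM), 6.82 and 7.49 (PNX) and 7.38 and 7.17 (PNX dnFGFR). The dim arrays gave 7.07 and 7.48, 6.41 and 6.41, and 7.50 and 7.05 in the same order. PNX was below SHAM in each gate, by 1.31 ± 0.27 and 0.86 ± 0.27 on the log2 scale. With dnFGFR, bright cells were 1.19 ± 0.27 below SHAM and overlapped PNX, and dim cells overlapped SHAM, with a difference of -0.00 ± 0.27, but the test of the difference between gates was not passed (limma adjusted p = 0.25). Bright PNX dnFGFR minus PNX was 0.12 ± 0.27, and it ran from -0.22 without bright PNX replicate 1 to 0.45 without bright PNX replicate 2.

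**Figure D1:**
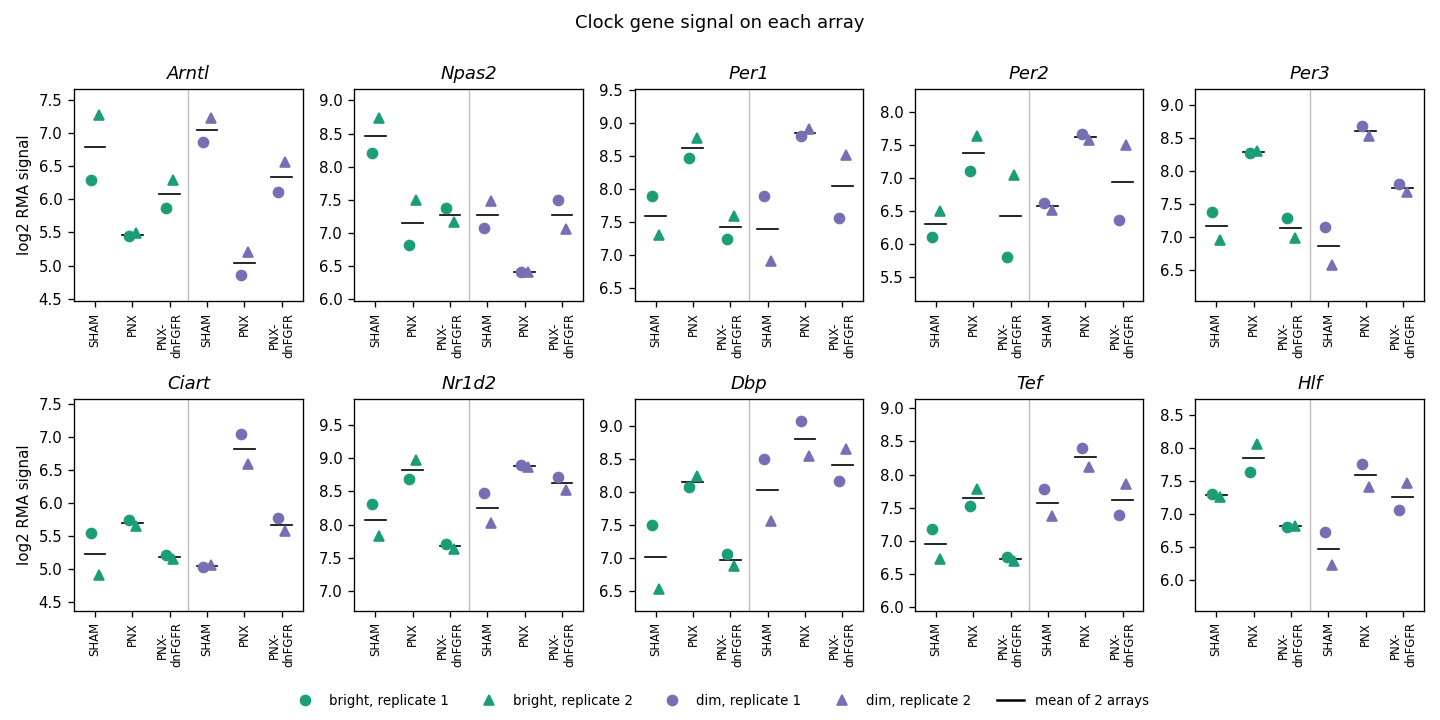
Log2 signal of the 10 clock genes (1 panel each) on the 12 arrays, grouped by surgery on the horizontal axis, with circles for replicate 1, triangles for replicate 2, lines for the mean of 2 arrays and colours for the gate. In each gate the mean of Arntl and Npas2 is lowest after PNX, and that of the other 8 genes is highest there. Single arrays of PNX and PNX dnFGFR overlap for Npas2 in bright cells and for Dbp and Hlf in dim cells.

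The Period genes, whose proteins form the repressor complex, were higher after PNX than after SHAM in both gates. Per3, on chromosome 4 (150997018 to 151044707), gave 7.38 and 6.96 in bright cells after SHAM, 8.28 and 8.30 after PNX and 7.30 and 6.99 after PNX dnFGFR. In dim cells the arrays were at 7.15 and 6.59, 8.69 and 8.54, and 7.80 and 7.69. All 4 PNX arrays lay above every SHAM and PNX dnFGFR array of either gate. PNX minus SHAM was 1.12 ± 0.21 in bright and 1.74 ± 0.21 in dim cells. With dnFGFR, bright cells were at the SHAM level (difference -0.02 ± 0.21) and dim cells above it by 0.87 ± 0.21. Averaging all 5 probe sets gave smaller dim differences, 1.09 for PNX and 0.48 for PNX dnFGFR against SHAM.

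Per1, which glucocorticoids and other acute signals are known to induce, lies on chromosome 11 (69095108 to 69109965). Its bright arrays gave 7.89 and 7.30 (SHAM), 8.47 and 8.78 (PNX) and 7.25 and 7.59 (PNX dnFGFR), and its dim arrays 7.89 and 6.91, 8.80 and 8.91, and 7.57 and 8.51. PNX minus SHAM was 1.03 ± 0.38 and 1.45 ± 0.38. PNX dnFGFR overlapped SHAM in each gate and lay below PNX by 1.21 ± 0.38 in bright and 0.81 ± 0.38 in dim cells, the second being 0.34 without dim PNX dnFGFR replicate 1 and 1.28 without replicate 2.

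Per2, on chromosome 1 (91415977 to 91459351), gave 6.10 and 6.50, 7.11 and 7.63, and 5.81 and 7.04 in bright SHAM, PNX and PNX dnFGFR. Dim cells gave 6.62 and 6.52, 7.67 and 7.57, and 6.37 and 7.50. The differences of PNX from SHAM were alike in size, 1.07 ± 0.43 and 1.05 ± 0.43. The PNX dnFGFR arrays disagreed with each other: replicate 1 was near SHAM and replicate 2 near PNX, in both gates. PNX dnFGFR minus PNX was accordingly -0.94 ± 0.43 in bright and -0.69 ± 0.43 in dim cells, and fell in size to -0.33 and -0.12 without replicate 1 of that gate.

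Ciart, also called Chrono, encodes a repressor of the BMAL1 complex and lies on chromosome 3 (95878500 to 95882257). Its bright arrays were at 5.55 and 4.91 (SHAM), 5.74 and 5.66 (PNX) and 5.22 and 5.15 (PNX dnFGFR). In dim cells it was at 5.03 and 5.07, 7.04 and 6.59, and 5.78 and 5.57. The difference of PNX from SHAM was 1.76 ± 0.22 in dim cells, a 3.39-fold higher signal, and 0.47 ± 0.22 in bright cells, where it was 0.15 without SHAM replicate 2 and 0.79 without SHAM replicate 1. Its SHAM signals lay around the filter (log2 5.101).

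Nr1d2, which encodes REV-ERB beta and lies on chromosome 14 (18204056 to 18239106), gave 8.31 and 7.82, 8.69 and 8.97, and 7.71 and 7.63 in bright SHAM, PNX and PNX dnFGFR. The dim arrays gave 8.48 and 8.03, 8.90 and 8.87, and 8.72 and 8.52. PNX exceeded SHAM by 0.77 ± 0.21 and 0.63 ± 0.21. PNX dnFGFR lay below both other groups in bright cells, by 1.16 ± 0.21 from PNX. In dim cells it lay between them, with a difference from PNX of -0.27 ± 0.21. Without dim SHAM replicate 2 the dim PNX minus SHAM difference was 0.40, and without dim PNX dnFGFR replicate 2 the other was -0.17.

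The 3 PAR-bZIP output factors followed the Period genes after PNX. Dbp, on chromosome 7 (45705100 to 45710203), whose transcription is known to swing widely over the day, gave 7.50 and 6.54, 8.08 and 8.24, and 7.07 and 6.89 in bright SHAM, PNX and PNX dnFGFR. In dim cells it gave 8.50 and 7.57, 9.08 and 8.54, and 8.17 and 8.65, where the nearest SHAM and PNX arrays were at 8.50 and 8.54. PNX minus SHAM was 1.14 ± 0.37 in bright and 0.78 ± 0.37 in dim cells, the second being 0.31 without dim SHAM replicate 2, 0.51 without dim PNX replicate 1 and 1.24 without dim SHAM replicate 1. Without bright SHAM replicate 2 the first was 0.66.

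Tef, on chromosome 15 (81802673 to 81826863), gave 7.18 and 6.73 on its bright SHAM arrays, 7.52 and 7.78 on those of PNX, then 6.75 and 6.69 with dnFGFR. The dim arrays gave 7.78 and 7.37, 8.40 and 8.12, and 7.39 and 7.85. Its PNX minus SHAM differences were nearly equal, 0.70 ± 0.23 and 0.68 ± 0.23, and PNX dnFGFR overlapped SHAM in both gates.

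Hlf, on chromosome 11 (90336535 to 90390917), gave 7.30 and 7.26, 7.63 and 8.05, and 6.81 and 6.82 in bright SHAM, PNX and PNX dnFGFR, and in dim cells 6.72 and 6.23, 7.76 and 7.41, and 7.06 and 7.46. PNX minus SHAM was 0.56 ± 0.22 in bright cells, or 0.35 without PNX replicate 2, and 1.11 ± 0.22 in dim cells. PNX dnFGFR was below SHAM on every bright array (-0.47 ± 0.22) and above SHAM on every dim array (0.78 ± 0.22). Averaging its probe sets brought the dim value to 0.34, and the other probe set gave -0.09.

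**Figure D2:**
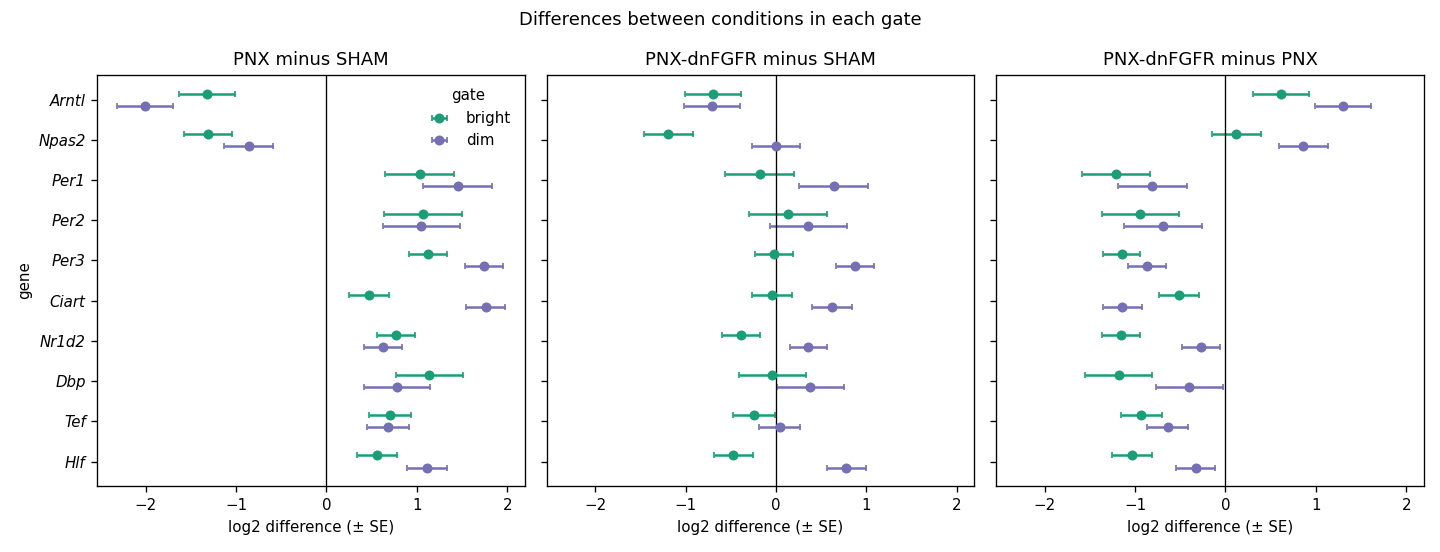
Differences between surgery groups in log2 signal (points, ± SE from the fit over all genes) for each of the 10 clock genes (vertical axis), with 1 panel per comparison and colours for the gate. PNX minus SHAM is negative for Arntl and Npas2 and positive for the other 8 genes in both gates, while PNX dnFGFR minus SHAM lies on both sides of 0.

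Over the 10 genes, the PNX and SHAM arrays did not overlap, in the same direction in both gates, for all 10 (8 higher, 2 lower), where 14.8% of the 11073 genes tested did so. For PNX dnFGFR against PNX this held for 7 of 10 (6 lower, and Arntl higher), beside 10.8% of all genes. For PNX dnFGFR against SHAM it held for 1, Arntl, beside 15.8%. Since the genes were chosen on such differences, nothing is read from the counts, and the comparisons share arrays: the PNX arrays enter the first pair of them, and the SHAM arrays both comparisons with SHAM.

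The median difference of PNX from SHAM over the 10 genes, as the mean of both gates, was 0.90, beside 0.02 over all genes tested. In that mean Arntl was at -1.66 ± 0.22, Npas2 at -1.08 ± 0.19, Per3 at 1.43 ± 0.15, Per1 at 1.24 ± 0.27 and Ciart at 1.12 ± 0.16. Per2 (1.06 ± 0.31), Dbp (0.96 ± 0.27), Hlf (0.83 ± 0.16), Nr1d2 (0.70 ± 0.15) and Tef (0.69 ± 0.16) followed. The order among the 8 genes above 0 rests on differences between neighbours that are within their errors. With the mean of probe sets Per3 gave 1.01, below Per1 (1.24), Per2 (1.19) and Ciart (1.12). With dnFGFR the same means against SHAM ran from -0.70 ± 0.22 for Arntl (-0.46 without bright SHAM replicate 2) to 0.42 ± 0.15 for Per3 (0.19 with the mean of its probe sets).

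Ordering the 6 group means gives dim PNX as the highest for Per1, Per2, Per3, Ciart, Nr1d2, Dbp and Tef, and bright PNX for Hlf. Arntl and Npas2 had their lowest means in the PNX groups, with dim PNX at the bottom. Neighbours in these orders often overlapped: all 5 neighbouring pairs did for Per2, 4 of 5 for Per1 and Dbp, and 2 of 5 for Per3, Ciart and Hlf.

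**Figure D3:**
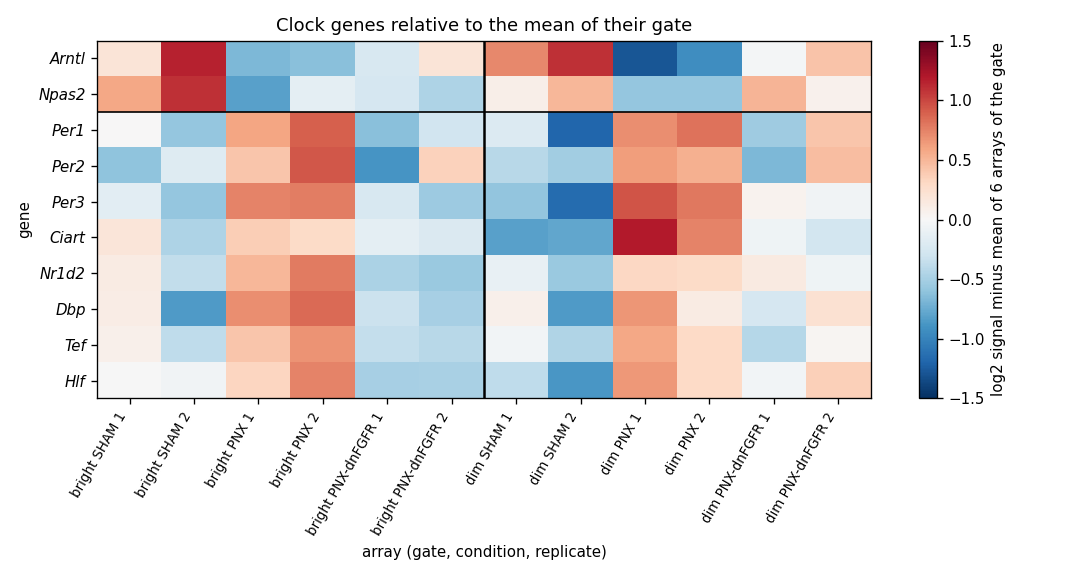
Log2 signal of the 10 clock genes (vertical axis) on each array (horizontal axis) minus the mean of the 6 arrays of that gate, as colour from blue (lower) to red (higher). The upper 2 genes, the activators, run opposite to the lower 8 across the arrays, most plainly between SHAM and PNX.

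After subtracting the mean of each gate, the 12 arrays showed how the members moved together. The arrays share 3 surgery groups, so this is a description. Arntl and Npas2 had a Pearson correlation of 0.780. Each of them with the other 8 genes gave 16 negative correlations, from -0.925 (Arntl with Ciart) to -0.347, with a median of -0.625. The 28 pairs among the other 8 were positive, from 0.569 to 0.931, with a median of 0.845.

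The genes outside the list most like Arntl by this measure, over 12 arrays, were Aebp1 (0.959), Capn3 (0.937), Fth1 and Medag (both 0.919) and Sod1 (0.913). The most opposite to it were Acaca (-0.930), Lypla1 (-0.913), Bok (-0.911), Akr1a1 (-0.910) and Islr2 (-0.908). Those most like Per3 were Coq10b (0.950), Bok (0.941), Sphk2 (0.939), Vasn (0.935) and Zfand2a (0.927).

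Other probe sets of the same genes were a check on the choice. The 10 genes had 20 probe sets, and 7 genes had more than 1. All 10 other probe sets had the sign of the chosen one for PNX minus SHAM and for PNX dnFGFR minus PNX as the mean of both gates, and 7 of 10 had it for PNX dnFGFR minus SHAM. The 4 other Per3 probe sets gave 0.84 to 1.07 for PNX minus SHAM, below the 1.43 of the one used. The second Arntl probe set was under the filter on 11 arrays (3.95 to 5.19) and gave -0.76. That of Per2 gave 1.32, that of Npas2 -1.15, that of Nr1d2 0.80, that of Tef 0.59 and that of Hlf 0.97.

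Within each group, the median gap between the 2 arrays was larger for these genes than over all genes tested. In SHAM it was 0.50 in bright and 0.44 in dim cells, beside 0.18 and 0.22 over all genes tested. After PNX it was 0.28 and 0.22, beside 0.24 and 0.18, and with dnFGFR 0.19 and 0.46, beside 0.16 and 0.21. The members' gaps are not independent of each other, so this is a description.

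The direction of the gaps was mostly shared by the gates in SHAM and PNX dnFGFR, but not in PNX. In SHAM the sign of replicate 1 minus replicate 2 was the same in bright and dim cells for 8 of 10 genes. Arntl and Npas2 were lower in replicate 1 of both gates, while Per1, Per3, Nr1d2, Dbp, Tef and Hlf were higher, by 0.96 and 0.93 for Dbp. In PNX dnFGFR 8 of 10 signs agreed, with Per2 lower in replicate 1 by 1.23 and 1.13, and in PNX 3 of 10. Over all tested genes the gaps of the 2 gates correlated at 0.005 (SHAM), 0.003 (PNX) and 0.128 (PNX dnFGFR). The share of all genes whose signs agreed was not computed, so nothing is read from the counts of signs. The labels do not say whether samples of the same number came from the same mouse or were taken at the same hour, and the part of either in these gaps was not tested.

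**Figure D4:**
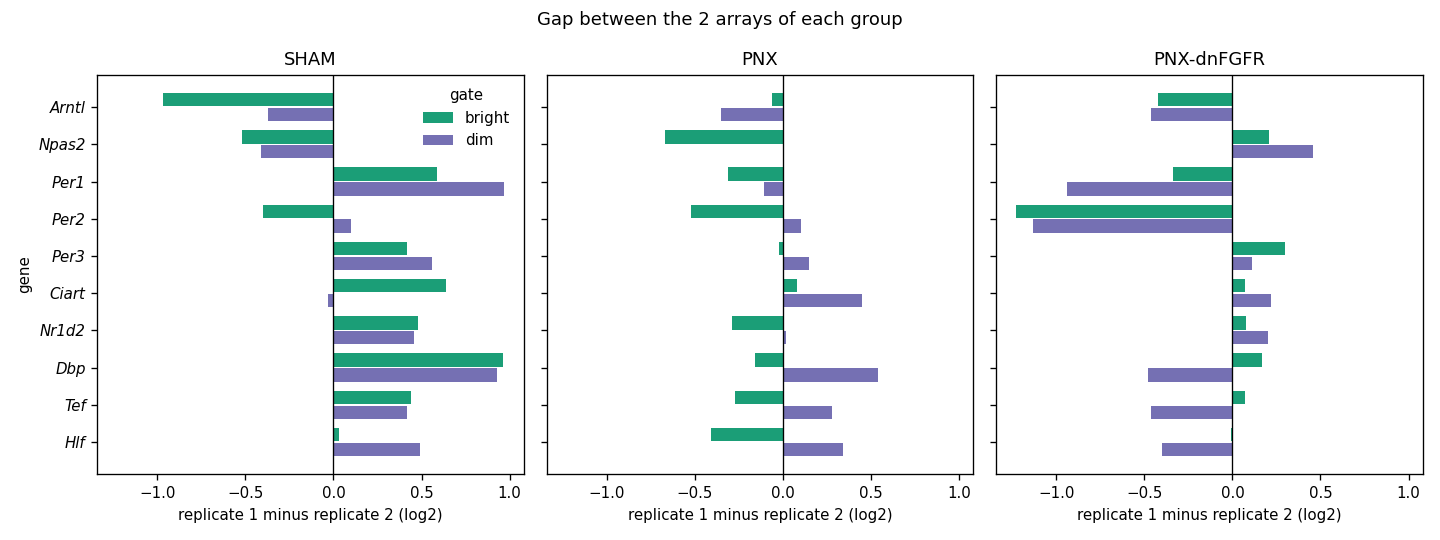
Replicate 1 minus replicate 2 in log2 signal (bars) for each of the 10 clock genes (vertical axis), with 1 panel per surgery group and colours for the gate. In SHAM the gaps of Dbp are 0.96 and 0.93, and 8 of 10 genes have the same sign in both gates.

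Bright and dim cells differed in 5 of the 10 genes, a comparison that the stated choice of genes does not name, though its results were known. As the mean over the 3 surgery groups, limma (all 12 arrays, Benjamini-Hochberg over 11073 genes) called Npas2 higher in bright cells by 0.65 ± 0.16 (adjusted p = 0.0079), and Tef (-0.71 ± 0.13, adjusted p = 0.0018), Dbp (-1.03 ± 0.22, 0.0036), Ciart (-0.47 ± 0.13, 0.013) and Nr1d2 (-0.40 ± 0.12, 0.022) lower. Among all genes 47.8% were called, 28.5% higher and 19.3% lower, so the members' share was near the background. The call for Nr1d2 was lost (adjusted p 0.054 to 0.057) without bright SHAM replicate 2, bright PNX replicate 1, bright PNX dnFGFR replicate 2, dim SHAM replicate 1 or dim PNX dnFGFR replicate 1. Arntl, with -0.03 and a 95% interval of -0.44 to 0.38, Per1 (-0.22), Per2 (-0.34), Per3 (-0.21) and Hlf (0.21) were not called.

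Within single surgery groups limma called fewer. In SHAM, where 19% of genes were called, Npas2 (1.19 ± 0.27, adjusted p = 0.015) and Hlf (0.80 ± 0.22, 0.034) were higher in bright cells. Npas2 missed the threshold when bright SHAM replicate 2 (0.93, adjusted p = 0.10) or dim SHAM replicate 1 (0.99, 0.087) was left out, and Hlf without either SHAM array of the bright gate, dim SHAM replicate 2 (0.56, 0.19) or either bright PNX dnFGFR array (0.053 each), with the mean of its probe sets (0.44, 0.22) and in a fit of the SHAM arrays alone (0.074). In PNX, where 18.4% were called, Ciart was lower in bright cells (-1.11 ± 0.22, adjusted p = 0.0075), but not without dim PNX replicate 1 (-0.89, 0.061). With dnFGFR, where 34.4% were called, Nr1d2 (-0.95, 0.0071), Tef (-0.90, 0.014) and Dbp (-1.43, 0.016) were lower. Dbp and Tef lost that call without either bright PNX dnFGFR array or dim PNX dnFGFR replicate 2 (adjusted p 0.057 to 0.10).

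Whether a surgery effect differed between the gates was put to the interaction in limma, and no member passed in any of the 3 comparisons (0%, 0.126% and 0% of all genes called for PNX minus SHAM, PNX dnFGFR minus SHAM and PNX dnFGFR minus PNX). The members were chosen with their surgery differences known, and the interaction is made of these differences. Its values are therefore a description. At an unadjusted p under 0.05 there were 1, 4 and 1 members and 495, 1401 and 909 genes. The largest was Ciart, whose PNX minus SHAM difference was 1.29 ± 0.31 smaller in bright than in dim cells (95% interval of bright minus dim -1.99 to -0.59, adjusted p = 0.89). For PNX dnFGFR minus SHAM, bright minus dim was -1.25 ± 0.32 for Hlf (-1.96 to -0.54, adjusted p = 0.17) and -1.19 ± 0.38 for Npas2 (-2.05 to -0.32, 0.25). These intervals, which are not corrected for the number of genes, allow sizable differences between gates, which these arrays could not call.

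Other clock genes were taken from a list of 24 core and output genes, whose members were also set apart from the 10 with results known. Of these, 20 were measured and 17 tested. Cry1, a main repressor partner of the Period proteins, was under the filter everywhere (2.95 to 3.63), and Nr1d1, which encodes REV-ERB alpha, was not analysed here. For PNX minus SHAM limma called 0 of 17 in bright cells, in dim cells and in their mean. Among all genes 0.00903%, 0.0452% and 0.144% were called. At an unadjusted p under 0.05 there were 5, 6 and 6 of the 17, beside 912, 1346 and 1787 of all 11073 genes.

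The kinase gene Wee1, a known E-box target, gave the largest difference among them in the mean of both gates. It was at 6.65 and 6.20 in bright SHAM, 7.27 and 7.44 in PNX, 5.27 and 4.40 in dim SHAM and 6.33 and 6.25 in dim PNX. The mean difference was 1.19 ± 0.24 (limma adjusted p = 0.093), with no overlap in either gate. Usp2, a deubiquitinase gene and clock output, gave 1.07 ± 0.23 (0.097), also without overlap. Averaging a gene's probe sets brought both under the threshold (1.14 and 1.04, adjusted p = 0.031 each).

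Clock itself, partner of BMAL1, was at 6.31 to 7.02 on all arrays, with a PNX minus SHAM difference of -0.24 ± 0.13 (95% interval -0.53 to 0.05, limma adjusted p = 0.40). For Cry2 (0.09, 0.81), the repressor gene Bhlhe41 (0.21, 0.65), its relative Bhlhe40 (0.70 ± 0.19, 0.13) and the activator gene Rora (0.06, 0.79) no change was called. Nfil3, whose protein competes with DBP, TEF and HLF for D-boxes, was at 6.30 and 6.58 in dim SHAM and 5.36 and 5.40 in dim PNX (-1.06 ± 0.20, adjusted p = 0.12), and in bright cells it differed by -0.04.

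In bright cells limma called 3 of the 17 for PNX dnFGFR minus SHAM, beside 5.2% of all genes. This comparison holds both the pneumonectomy and dnFGFR. In the same cells PNX minus SHAM was -0.04 for Nfil3, 0.85 for Timeless and -0.03 for Rora. PNX dnFGFR minus PNX was 1.36, 0.36 and -0.58 in that order. Nfil3 rose, from 7.25 and 7.22 to 8.48 and 8.62 (1.32 ± 0.20, limma adjusted p = 0.014). Timeless, a gene of the replication fork with a debated role in the mammalian clock, rose from 4.62 and 4.40 to 5.99 and 5.46 (1.21 ± 0.28, 0.044), and Rora fell from 9.58 and 9.58 to 8.92 and 9.04 (-0.60 ± 0.14, 0.041). None of the 3 calls held without either bright SHAM array or either bright PNX dnFGFR array (adjusted p 0.052 to 0.24). Those of Rora and Timeless were also lost without any one SHAM or PNX dnFGFR array of the dim gate (0.050 to 0.060), and that of Rora without either dim PNX array (0.057 each). In a fit of the compared groups alone Rora had an adjusted p of 0.063. Timeless gave 0.62 (0.072) with low values set to the filter, and 1.21 (0.052) with no filter. In dim cells, and in the mean of both gates, limma called 0 of 17 (beside 0.0181% and 2% of all genes). At an unadjusted p under 0.05 there were 3 and 2, beside 1054 and 2395 of all 11073 genes. For PNX dnFGFR minus PNX limma called 0 of 17 in bright cells, in dim cells and in the mean (beside 0.00903%, 0% and 0%). At an unadjusted p under 0.05 there were 6, 6 and 6, beside 1390, 863 and 1384 of all genes. Nfil3 in bright cells stood at 1.36 there (adjusted p = 0.065), or 1.57 (0.017) without bright PNX replicate 1.

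**Figure D5:**
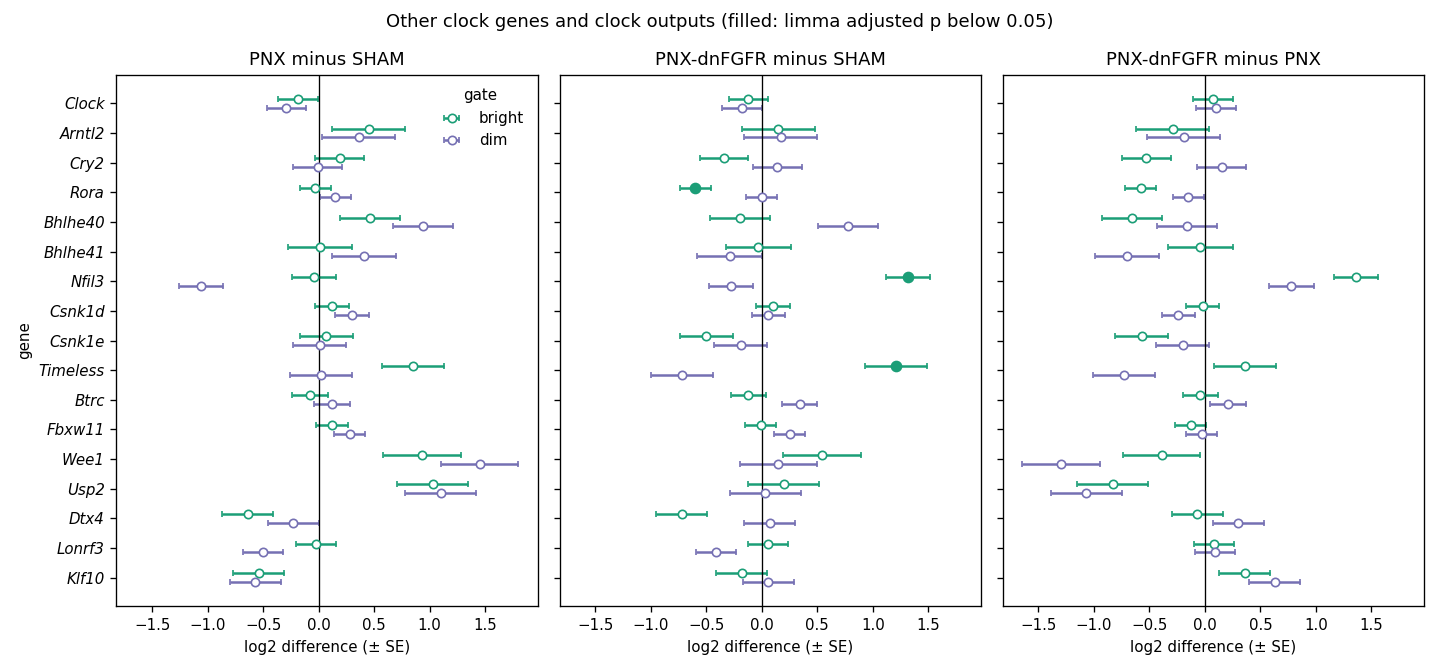
Differences between surgery groups in log2 signal (points, ± SE) for the 17 tested clock genes outside the 10 (vertical axis), with 1 panel per comparison, colours for the gate and filled points where limma's adjusted p was under 0.05. Filled points appear for Nfil3, Timeless and Rora in bright cells, PNX dnFGFR minus SHAM.

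Acute signals other than the clock also reach Per1, so their targets are given beside it. Of 9 tested glucocorticoid-responsive genes, limma called 0 in each mean comparison. Among all genes 0.144% (PNX minus SHAM), 2% (PNX dnFGFR minus SHAM) and 0% (PNX dnFGFR minus PNX) were called. An unadjusted p under 0.05 was reached by 6 of the 9 for PNX minus SHAM and 5 for PNX dnFGFR minus PNX. Among all 11073 genes tested, 1787 and 1384 reached it. Errfi1, a feedback inhibitor of the EGF receptor, gave 1.48 ± 0.23 (limma adjusted p = 0.056) and -1.57 ± 0.23 (0.099) in these comparisons. The largest difference of PNX from SHAM ran the other way, in Zbtb16, a transcription factor gene, at -1.98 ± 0.33 (0.072). Of the 9 genes 5 were above 0 and 4 below, and the median was 0.84, beside 0.02 over all genes. Of 9 immediate early genes limma also called 0 in each mean comparison, beside the same shares of all genes. Their median for PNX minus SHAM was 0.32. By gate it was -0.06 in bright cells (4 above 0 and 5 below) and 0.61 in dim cells (8 above and 1 below). The part of both lists in the levels of the clock genes was not tested.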

How the data were processed

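The values are the authors' deposited table, log2 signal after RMA per the submitters' processing notes (version and options not given in the sources used here). RMA quantile normalization gives all arrays nearly one distribution, so a shift of all genes cannot be seen. Of 45141 probe sets, 104 controls were dropped. GEO's platform annotation gave 28898 probe sets 1 gene, 551 several and 15588 none. The probe set with the highest mean stood for a gene, and genes above the median of all values (log2 5.101) on at least 2 arrays were tested (11073 of 17097).

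limma 3.58.1 in R 4.3.3 fitted 1 mean per group to all 12 arrays (6 residual and 3.31 prior degrees of freedom), with Benjamini-Hochberg adjustment over all genes and a threshold of 0.05. The fit was tested on simulated data. Precision is limited by the 2 arrays per group.

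The members and gene lists were chosen with earlier results of these data known. All 10 members are named. Other clock genes are named if they are Clock, Cry1, Cry2, Nr1d1, Rora, Bhlhe40, Bhlhe41 or Nfil3 or passed a surgery comparison. Up to 2 genes stand as examples for the glucocorticoid and immediate early lists, and likeness names 5 genes per end. Wee1 and Usp2 were named after their values were seen.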

Additional observations from a re-analysis of the deposited data

Results flagged for a closer look

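Among the 10 members and 17 other tested clock genes, 4 had no overlap of PNX dnFGFR and SHAM arrays in either gate, with opposite directions. The share of all genes with this pattern was not computed, so nothing is read from the count. The difference of PNX dnFGFR from SHAM, bright minus dim, was -1.25 for Hlf (limma adjusted p = 0.17) and -0.76 for Nr1d2 (0.32), both lower than SHAM in bright and higher in dim cells. With the mean of probe sets these were -0.78 (0.35) and -0.77 (0.32), and the other Hlf probe set was not higher in dim cells (-0.09). It was -0.98 for Bhlhe40 (0.32), in the same directions. It was 1.93 for Timeless (0.11), which was higher in bright and lower in dim cells. Its signals were under the filter on low values in dim cells and in bright SHAM. None of the 4 passed this test of the difference itself, which for Hlf and Nr1d2 is built from differences known when they were chosen.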

How the results depend on the processing

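No called result changed sign under the alternatives tried, which were a stricter filter and none, another quantile normalization, the mean of probe sets, a variance trend, only the groups compared, values below the filter set to it, the replicate block and leaving out each array. Members called between the gates numbered 2 in SHAM, but 1 with the mean of probe sets or only the groups compared, and 0 to 2 without single arrays. In PNX the count of 1 became 0 under the stricter filter, which left Ciart untested, and 2 with the mean of probe sets (0 to 2 without single arrays). In PNX dnFGFR the count of 3 was 1 to 4 without single arrays. Other clock genes called for the mean PNX minus SHAM were 0, but 2 with the mean of probe sets. For PNX dnFGFR minus PNX in bright cells the 0 became 1 under the stricter filter, with the variance trend and with values below the filter set to it (0 to 1 without single arrays, as in the mean of both gates). For PNX dnFGFR minus SHAM in bright cells the 3 became 0 to 3 without single arrays. Members whose PNX dnFGFR and SHAM arrays did not overlap, in the same direction in both gates, numbered 1. This count was 0 after another quantile normalization, and 1 to 3 without single arrays. The cause of these shifts was not tested. Of 801 surgery differences of members recomputed under alternatives other than leaving out an array, 790 moved by less than 1 SD between replicates. Over all alternatives, leaving out arrays included, members' differences changed sign in 0 of 627 values for PNX minus SHAM, 1 of 627 for PNX dnFGFR minus PNX (Npas2 in bright cells, 0.12 to -0.22) and 25 of 627 for PNX dnFGFR minus SHAM, such as Per2 in dim (0.36 to -0.20) and bright cells (0.13 to -0.49) and Dbp in dim cells (0.38 to -0.09).

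Replicate numbers are shared between groups in the labels, and the gaps between replicates correlated at -0.185 to 0.347 over genes. The highest were those of bright SHAM with bright PNX dnFGFR (0.347) and with bright PNX (0.288). Between the gates of the same surgery group they were 0.005 (SHAM), 0.003 (PNX) and 0.128 (PNX dnFGFR). The numbers were not taken to pair the samples in the main fit, and a mouse, hour or other factor shared by number was not tested. With the replicate number as a block, members called between gates in PNX dnFGFR were 4 rather than 3 (Per3 added, adjusted p = 0.025), and other counts of calls did not change. Per3 was added there too under the stricter filter (0.042), another quantile normalization (0.046), the variance trend (0.046) and only the groups compared (0.047). With 2 arrays a group, a lone array left in a group was assumed to vary like the others, and signals near the filter limit Ciart and the second Arntl probe set.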

Other observations

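The output genes outside the 10 were higher in bright cells: limma called 5 of 5 tested, with a median of 0.69 as the mean over surgery groups, where 28.5% of all genes were called higher. They were Wee1 (1.54 ± 0.20, adjusted p = 2.1e-04), Klf10 (0.92 ± 0.13, 3.7e-04), a TGF-beta-responsive repressor gene, Usp2 (0.69 ± 0.19, 0.013), Dtx4 (0.42 ± 0.13, 0.026) and Lonrf3 (0.34 ± 0.10, 0.024). The PAR-bZIP output factors inside the 10 did not share this direction. Dbp (-1.03, limma adjusted p = 0.0036) and Tef (-0.71, 0.0018) were lower in bright cells, and Hlf (0.21) was not called. Of the 12 tested core genes 2 were called higher and 2 lower. Bright minus dim was 1.67 ± 0.12 for Nfil3 (adjusted p = 4.6e-06) and -1.08 ± 0.13 for Cry2 (1.1e-04). These genes were singled out after their values were seen.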
